A study of Mus musculus with 8 samples.

Results

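The genes described here encode mouse potassium channels, transient receptor potential (TRP) channels, chloride channels and transporters, and the voltage-gated proton channel. They were taken by symbol from the deposited expression table: every row that starts with Kcn, that starts with Trpc, Trpm or Trpv followed by a digit, that starts with Clcn, or that is Hvcn1. The rule returned 127 of the 23413 rows, of which 95 were Kcn genes, 22 Trp genes and 9 Clcn genes, with Hvcn1 as the last. It uses names alone, so it also holds accessory subunits (Kcnab2, Kcnip3, Kcne2), an adaptor protein with no pore (Trpc4ap) and the noncoding transcript Kcnq1ot1.

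RNA was sequenced from 3 groups of sorted mouse phagocytes. Repopulating microglia (n = 3) and bone-marrow macrophages (n = 3) carry the strain label DTRmg, and wild-type microglia (n = 2) carry the strain label DTR. The labels give one treatment for all 8 samples: tamoxifen injected under the skin (2 mg on postnatal day 12 and again on day 14) and diphtheria toxin injected into the abdomen (500 ng, 3 times), followed by papain digestion, a Percoll gradient (30% and 70%) and flow sorting. The promoter that drives the toxin receptor, the age at sorting and the organ from which the bone-marrow macrophages were taken are not stated in the labels used here. Since strain label and group change together, their effects cannot be told apart in either comparison with wild type. The labels do not say that the samples of a group came from separate animals, so the p-values reflect how far these libraries spread, and that spread can be technical.

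Potassium channels set the membrane potential of microglia and macrophages, and with it the driving force for calcium entry and the tone of surveillance by the cell's processes. Open potassium channels also lower the potassium content of the cell, a step known to trigger the NLRP3 inflammasome. The proton channel carries out of the cell the charge and acid that the NADPH oxidase leaves behind during the respiratory burst, several TRP channels let calcium in on stretch, heat or oxidation, and most Clcn genes named below encode chloride-proton exchangers of endosomes and lysosomes.

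Each library held 5918944 to 12476427 reads on genes. Levels are given as normalised counts, that is, reads divided by the size factor of their library. On all tested genes, replicate 3 of the repopulating microglia stood apart from replicates 1 and 2: the SD of the log2 differences was 0.875 and 1.01 against them, 0.519 between replicates 1 and 2, 0.399 to 0.427 among bone-marrow macrophages and 0.479 between the wild-type libraries. The summed level of 8 microglia markers ran from 275784 to 331647 in repopulating microglia, 124526 to 135493 in bone-marrow macrophages and 426546 to 449180 in wild-type microglia. Among them Sall1, a transcription factor that defines microglia, had 1864 to 6101 normalised counts in repopulating microglia and 9.55 to 35.8 in bone-marrow macrophages, against 3180 and 4056 in wild-type microglia. The 6 markers of macrophages at the brain's borders summed to 416 to 1083 in repopulating microglia, 5614 to 6973 in bone-marrow macrophages and 697 to 1072 in wild-type microglia. Mrc1 and Pf4 made up most of the bone-marrow sum, with means of 4087 and 1478 against 319 and 52.1 in wild-type microglia. Cbr2 was also higher on average (93.9 against 52.3) and F13a1 was level (406 against 404). Cd163 (21.2 against 44.3) and Lyve1 (6.46 against 12.4) had lower means in bone-marrow macrophages. The 8 neutrophil markers summed to 1647 to 2956 in repopulating microglia, 799 to 1339 in bone-marrow macrophages and 25726 to 27721 in wild-type microglia. The 5 monocyte markers in the table summed to 259 to 678 in repopulating microglia, 1078 to 1657 in bone-marrow macrophages and 3195 to 5450 in wild-type microglia. Ccr2, most of the bone-marrow sum, had a mean of 1166 in bone-marrow macrophages against 930 in wild-type microglia. The other 4 had higher means in wild-type microglia. The 6 astrocyte markers summed to 266 to 2232 in repopulating microglia, 100.02 to 140.0 in bone-marrow macrophages and 1180 to 6518 in wild-type microglia. Slc1a3 made up most of this sum in every microglia library, at 182 to 1909 in repopulating microglia and 987 and 6365 in wild-type microglia. Its mean in bone-marrow macrophages was 15.3. Gfap, the defining astrocyte filament, stayed at 13.2 to 30.0 in every library. The mean of Gfap was 24.8 in bone-marrow macrophages, 16.2 in repopulating microglia and 17.3 in wild-type microglia. The other astrocyte markers had their lowest means in bone-marrow macrophages. The part of these cell types in the channel results was not tested. In bulk samples, fewer cells of a type and less RNA per cell cannot be told apart.

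Most of the channel family was silent or nearly so. No read fell on 33 of the 127 genes in any library, and another 65 had reads but stayed under the minimum for testing, a normalised count of at least 10 in at least 2 libraries. The 29 tested genes (22.8% of the 127, against 48.8% of all rows) were 16 Kcn genes, 7 Trp genes, 5 Clcn genes and Hvcn1. A mean of 100 or more was reached by 19 genes in repopulating microglia, 16 in bone-marrow macrophages and 17 in wild-type microglia. All 127 genes together took 0.154% to 0.187% of the reads in repopulating microglia, 0.154% to 0.158% in bone-marrow macrophages and 0.157% to 0.166% in wild-type microglia.

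**Figure D1:**
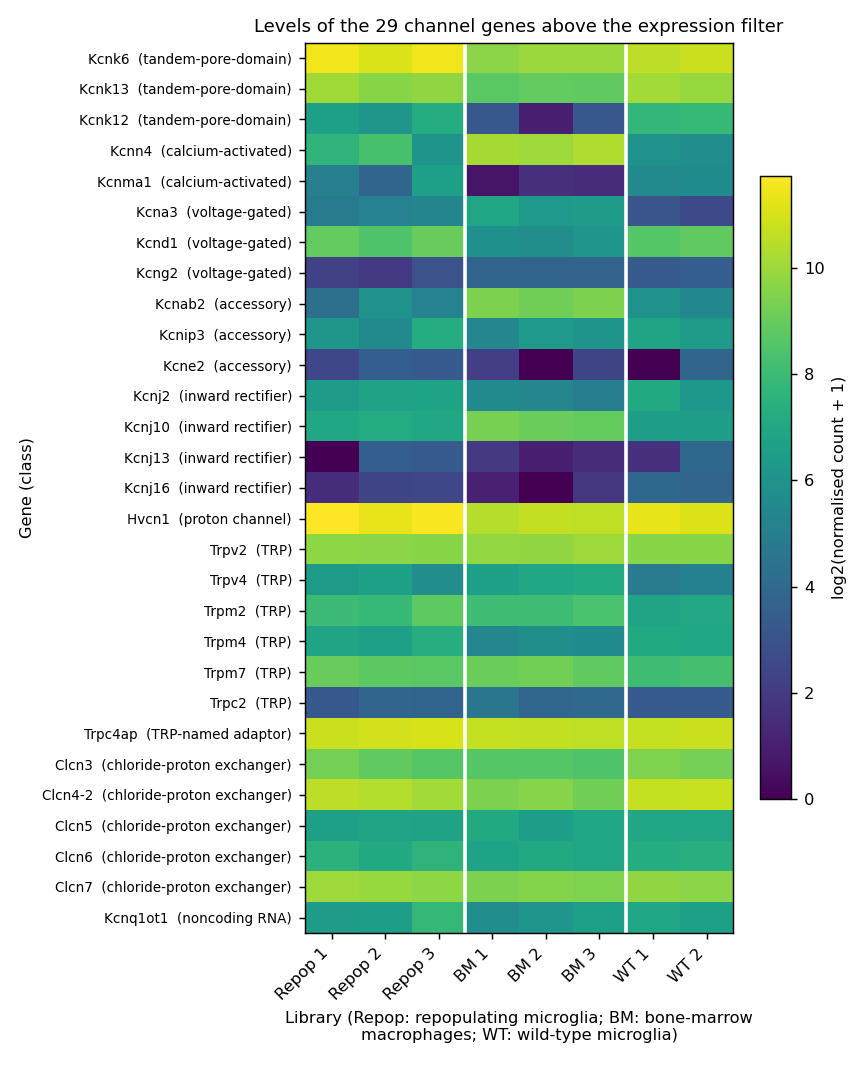
Levels of the 29 tested channel genes, as log2 (normalised count + 1), with 1 row per gene by family and 1 column per library, repopulating microglia on the left, then bone-marrow macrophages, then wild-type microglia. Hvcn1, Kcnk6 and Trpc4ap are high in all 8 libraries, whereas Kcnk12 and Kcnma1 are lowest in bone-marrow macrophages and Kcnn4 and Kcnab2 are highest there.

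The main test was limma's moderated test on log2 (normalised count + 1) over 11415 genes, with all 8 libraries in the fit and Benjamini-Hochberg adjustment at 0.05, so fold changes of low genes are understated. In repopulating against wild-type microglia, 5 of the 29 channel genes passed (17.2%, beside 8.61% of all tested genes), and all 5 were higher (beside 4.86% higher and 3.75% lower of all tested genes): Kcna3, Kcnk6, Trpm2, Trpm7 and Trpv4. In bone-marrow macrophages against wild-type microglia, 18 of 29 passed (62.1%, beside 43.5% of all tested genes), with 7 higher (beside 21.3%) and 11 lower (beside 22.2%). In repopulating microglia against bone-marrow macrophages, 15 of 29 passed (51.7%, beside 30.9%), with 10 higher (beside 16.0%) and 5 lower (beside 14.9%). The median log2 difference of the 29 genes was 0.06 in repopulating against wild-type microglia (−0.02 over all tested genes), −0.39 in bone-marrow macrophages against wild-type microglia (−0.01 over all), and 0.42 in repopulating microglia against bone-marrow macrophages (0.00 over all). Any 2 of the comparisons share libraries, so their values are set side by side and no overlap between them is given as a result. Scaling the libraries to equal totals put the median of all genes at −0.12 in the first of these comparisons, 0.13 in the second and −0.25 in the third. Under it the first comparison had 3 higher and 0 lower channel genes and, over all tested genes, 441 higher and 726 lower (555 and 428 as deposited). The second had 8 higher and 11 lower channel genes and 3000 higher and 2069 lower genes in all (2428 and 2532 as deposited). The third had 9 higher and 8 lower channel genes and 1172 higher and 2924 lower genes in all (1826 and 1700 as deposited). With 1 library left out, the 5 calls of repopulating against wild-type microglia became 1 without repopulating replicate 1, any bone-marrow library or any wild-type library, 3 without repopulating replicate 2 and 7 without replicate 3, and the 11 genes lower in bone-marrow macrophages became 7 without wild-type replicate 1. No channel gene changed direction in a comparison in which it was called, under any alternative setting that was run.

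**Figure D2:**
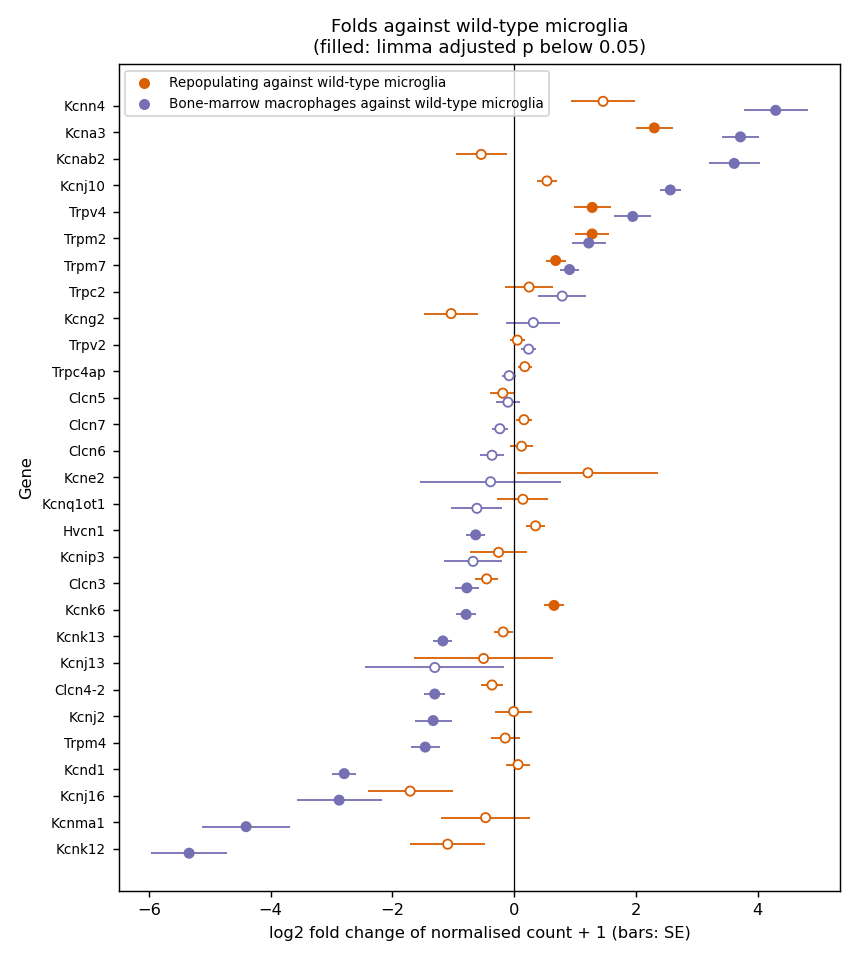
Log2 differences of the 29 tested channel genes against wild-type microglia, for repopulating microglia and for bone-marrow macrophages, with standard errors from the fit and filled symbols for adjusted p under 0.05. Both comparisons share the 2 wild-type libraries. Differences of bone-marrow macrophages reach from −5.34 for Kcnk12 to 4.29 for Kcnn4, and those of repopulating microglia from −1.71 for Kcnj16 to 2.30 for Kcna3.

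Kcnk6 and Kcnk13, of the tandem-pore-domain family whose members pass a steady background current, had the highest levels per kilobase among the potassium channels of both kinds of microglia. Positions below are whole genes in GENCODE on GRCm38. Kcnk6 (TWIK2, a channel named in potassium efflux from macrophages, chr7:29221926-29232515) had 2787, 2150.4 and 2787 normalised counts in repopulating microglia, 829, 998 and 999.97 in bone-marrow macrophages, and 1499 and 1762 in wild-type microglia. The 3 groups did not overlap: repopulating microglia were highest and bone-marrow macrophages lowest. By limma, Kcnk6 was higher in repopulating than in wild-type microglia (log2 difference 0.65 ± 0.17 SE, adjusted p = 0.0457), lower in bone-marrow macrophages than in wild-type microglia (−0.79 ± 0.17, adjusted p = 0.0054), and higher in repopulating microglia than in bone-marrow macrophages (1.44 ± 0.15, adjusted p = 0.000178). The first of these calls was lost, with an adjusted p of 0.0759 to 0.308, without any 1 of repopulating replicate 1, the bone-marrow libraries and the wild-type libraries, and the second without wild-type replicate 2 (adjusted p = 0.0564). The first was also lost without the filter (adjusted p = 0.0561), under equal totals (0.0853), with the replicate number as a block (0.0942) and when the 2 microglia groups were fitted alone (0.16).

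Kcnk13 (THIK1, the tonically active channel that holds the resting potential of microglia, chr12:99964499-100062682) had 1062, 784 and 874 normalised counts in repopulating microglia, 420.0, 469.8 and 469 in bone-marrow macrophages, and 1089.9 and 957 in wild-type microglia. Both kinds of microglia overlapped and every bone-marrow library was below all of theirs. The limma difference between repopulating and wild-type microglia was −0.18 ± 0.16 SE (adjusted p = 0.488). Kcnk13 was lower in bone-marrow macrophages than in wild-type microglia (−1.17 ± 0.16, adjusted p = 0.000588) and higher in repopulating microglia than in bone-marrow macrophages (0.99 ± 0.14, adjusted p = 0.00102).

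Its closest relative in the table, Kcnk12 (THIK2, chr17:87745801-87797994), showed the largest log2 difference of any tested channel gene. Its normalised counts were 100.1, 72.3 and 151 in repopulating microglia, 7.96, 1.06 and 7.94 in bone-marrow macrophages, and 213 and 229.8 in wild-type microglia. The groups did not overlap, with repopulating microglia in between. By limma Kcnk12 was lower in bone-marrow macrophages than in wild-type microglia (−5.34 ± 0.62 SE, adjusted p = 0.000272) and higher in repopulating microglia than in bone-marrow macrophages (4.25 ± 0.55, adjusted p = 0.000631). The gap between repopulating and wild-type microglia did not pass (−1.09 ± 0.62, adjusted p = 0.293). Without bone-marrow replicate 2, which had the lowest value, bone-marrow macrophages differed from wild-type microglia by −4.63 and repopulating microglia from bone-marrow macrophages by 3.54, and both still passed.

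Among the calcium-activated channels, Kcnn4 and Kcnma1 ran in opposite directions. Kcnn4 (KCa3.1, the intermediate-conductance channel that sustains calcium entry in activated macrophages and microglia, chr7:24370263-24386690) had 193, 316 and 65.7 normalised counts in repopulating microglia, 1121, 1026 and 1291 in bone-marrow macrophages, and 62.0 and 52.9 in wild-type microglia. Bone-marrow macrophages were far above both others, and repopulating replicate 3 was close to wild type while replicates 1 and 2 were well above it. By limma Kcnn4 was higher in bone-marrow macrophages than in wild-type microglia (4.29 ± 0.52 SE, adjusted p = 0.000359) and lower in repopulating microglia than in bone-marrow macrophages (−2.84 ± 0.47, adjusted p = 0.00218). The difference between repopulating and wild-type microglia, 1.46 ± 0.52, did not pass (adjusted p = 0.122). Without repopulating replicate 3 it was 2.09 and passed by limma (adjusted p = 2.03e-05), and the difference between repopulating microglia and bone-marrow macrophages was −2.20. With all libraries, DESeq2 on the recovered reads also called Kcnn4 higher in repopulating than in wild-type microglia (1.73, adjusted p = 0.00705).

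Kcnma1 (the large-conductance BK channel, chr14:23289431-24014491) had 33.1, 13.3 and 97.9 normalised counts in repopulating microglia, 0.568, 2.12 and 1.76 in bone-marrow macrophages, and 48.1 and 50.8 in wild-type microglia. The repopulating libraries spread to both sides of wild type, and bone-marrow macrophages were near 0. Kcnma1 was lower in bone-marrow macrophages than in wild-type microglia by limma (−4.40 ± 0.72 SE, adjusted p = 0.00164) and higher in repopulating microglia than in bone-marrow macrophages (3.93 ± 0.65, adjusted p = 0.00214). The second value was 4.61 without repopulating replicate 2 and 3.21 without replicate 3. Repopulating and wild-type microglia differed by −0.47 ± 0.72 (adjusted p = 0.709) and by 0.20 without repopulating replicate 2.

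The largest decrease and the largest increase of bone-marrow macrophages against wild-type microglia were those of Kcnk12 and Kcnn4, and the start regions of these genes are shown for that reason. Each sequence is RefSeq's window on GRCm38.p6 from 250 bases before to 50 bases after the transcript start, 5′ to 3′ on the gene's strand. For Kcnn4 (chr7:24370013-24370312, plus strand) capitals mark the E-box letters CACGTG, and for Kcnk12 (chr17:87797945-87798244, minus strand) they mark GAGGAA or its reverse complement TTCCTC, the core letters bound by the myeloid factor PU.1.
Kcnn4: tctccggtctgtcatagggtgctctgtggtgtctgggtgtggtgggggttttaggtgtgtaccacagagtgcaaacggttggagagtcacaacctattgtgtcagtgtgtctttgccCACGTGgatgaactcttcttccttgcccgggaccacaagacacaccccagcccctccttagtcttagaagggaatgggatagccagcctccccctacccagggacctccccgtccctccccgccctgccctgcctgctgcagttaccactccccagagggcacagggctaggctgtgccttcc
Kcnk12: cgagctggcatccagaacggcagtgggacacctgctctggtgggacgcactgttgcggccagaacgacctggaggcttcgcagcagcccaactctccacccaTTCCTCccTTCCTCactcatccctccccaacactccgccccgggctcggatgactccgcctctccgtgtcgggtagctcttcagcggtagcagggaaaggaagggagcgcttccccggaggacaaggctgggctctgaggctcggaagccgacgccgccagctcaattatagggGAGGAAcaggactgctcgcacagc
GAGGAA was found on either strand in 28.3% of 27025 windows and in 7 of the 24 windows of tested channel genes (29.2%). These letters describe the windows and are not evidence of binding.

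Kcna3, a voltage-gated potassium channel, was lowest in wild-type microglia. It (Kv1.3, a delayed rectifier linked to microglial and T cell activation, chr3:107036169-107038070) had 28.3, 35.4 and 40.3 normalised counts in repopulating microglia, 119, 80.6 and 84.7 in bone-marrow macrophages, and 7.48 and 5.08 in wild-type microglia, where it rested on 12 reads. The groups did not overlap, with bone-marrow macrophages highest. By limma it was higher in repopulating than in wild-type microglia (2.30 ± 0.30 SE, adjusted p = 0.00477), higher in bone-marrow macrophages than in wild-type microglia (3.71 ± 0.30, adjusted p = 4.77e-05) and lower in repopulating microglia than in bone-marrow macrophages (−1.42 ± 0.27, adjusted p = 0.00453). The first call held without any single library and was lost when the 2 microglia groups were fitted alone (adjusted p = 0.0645). T and NK cell markers, whose cells also use this channel, summed to 1.48 to 12.7 in repopulating microglia, 38.8 to 47.7 in bone-marrow macrophages and 48.8 to 140.0 in wild-type microglia. Of the T cell receptor subunits among them, Cd3e had 0, 0 and 8.06 normalised counts in repopulating microglia, 2.84, 6.36 and 8.82 in bone-marrow macrophages, and 0 in both wild-type libraries. Cd3g had 0.944, 0 and 0 in repopulating microglia, 11.4, 9.55 and 9.70 in bone-marrow macrophages, and 0 in both wild-type libraries. Cd3d had 4.72, 0 and 2.30 in repopulating microglia, 7.39, 11.7 and 3.53 in bone-marrow macrophages, and 21.4 and 33.6 in wild-type microglia. Cd3e and Cd3g were highest on average in bone-marrow macrophages, and Cd3d, Nkg7 and Klrb1c in wild-type microglia. The part of T and NK cells in the values of Kcna3 was not tested.

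Kcnd1 (Kv4.1, an A-type channel, chrX:7822289-7838280) was high in both microglia groups. It had 473, 362 and 503 normalised counts in repopulating microglia, 58.5, 54.1 and 68.8 in bone-marrow macrophages, and 392 and 457 in wild-type microglia. By limma it was lower in bone-marrow macrophages than in wild-type microglia (−2.79 ± 0.19 SE, adjusted p = 2.35e-05) and higher in repopulating microglia than in bone-marrow macrophages (2.86 ± 0.17, adjusted p = 1.98e-05), while repopulating and wild-type microglia overlapped (0.06 ± 0.19, adjusted p = 0.866). Kcng2, a modifier subunit that forms no channel alone, stayed between 2.95 and 6.91 in repopulating microglia, 12.3 and 12.7 in bone-marrow macrophages, and 9.62 and 10.2 in wild-type microglia. It was lower in repopulating microglia than in bone-marrow macrophages (−1.35 ± 0.40, limma adjusted p = 0.0311), a call lost without any 1 of 6 libraries (adjusted p of 0.0503 to 0.104 without repopulating replicates 1 and 2, the 3 bone-marrow libraries and wild-type replicate 2).

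Of the accessory subunits, Kcnab2 (the beta subunit of Kv1 channels, chr4:152390742-152477871) had 18.9, 63.5 and 35.7 normalised counts in repopulating microglia, 668, 578 and 685 in bone-marrow macrophages, and 60.9 and 43.7 in wild-type microglia. All 3 bone-marrow libraries were high and both microglia groups overlapped. Kcnab2 was higher in bone-marrow macrophages than in wild-type microglia by limma (3.61 ± 0.42 SE, adjusted p = 0.000269) and lower in repopulating microglia than in bone-marrow macrophages (−4.15 ± 0.37, adjusted p = 9.33e-05), and repopulating and wild-type microglia differed by −0.54 ± 0.42 (adjusted p = 0.436). Nphp4, which overlaps Kcnab2 in the annotation, had at most 6.91 in any library. The calcium-binding partner Kcnip3 (47.2 to 153 in repopulating microglia, 41.5 to 79.5 in bone-marrow macrophages, 115 and 81.3 in wild-type microglia) passed in no comparison by the main test.

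Inward rectifiers keep the membrane near the potassium equilibrium, and the tested members moved in different directions. Kcnj10 (Kir4.1, best known from astrocytes, chr1:172341210-172374085) had 124, 149 and 129 normalised counts in repopulating microglia, 633, 528 and 489 in bone-marrow macrophages, and 93.0 and 90.5 in wild-type microglia. The groups did not overlap, and bone-marrow macrophages had the most Kcnj10. The astrocyte marker Gfap had 13.3 to 18.4 in repopulating microglia, 14.8, 29.7 and 29.98 in bone-marrow macrophages, and 21.4 and 13.2 in wild-type microglia. The other astrocyte markers, Slc1a3, Slc1a2, Aldoc, Gja1 and Aqp4, had their lowest means in bone-marrow macrophages. The part of astrocytes in the values of Kcnj10 was not tested. By limma Kcnj10 was higher in bone-marrow macrophages than in wild-type microglia (2.56 ± 0.17 SE, adjusted p = 1.94e-05) and lower in repopulating microglia than in bone-marrow macrophages (−2.03 ± 0.15, adjusted p = 4.13e-05). Between repopulating and wild-type microglia the difference was 0.54 ± 0.17 (adjusted p = 0.0856), and it passed without repopulating replicate 3 (0.56, adjusted p = 0.0271).

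Kcnj2 (Kir2.1, the classical inward rectifier of cultured microglia, chr11:111066164-111076821) had 85.0, 108 and 112 normalised counts in repopulating microglia, 47.7, 42.4 and 30.9 in bone-marrow macrophages, and 137 and 75.2 in wild-type microglia. It was lower in bone-marrow macrophages than in wild-type microglia (−1.33 ± 0.31 SE, limma adjusted p = 0.00823) and higher in repopulating microglia than in bone-marrow macrophages (1.32 ± 0.27, limma adjusted p = 0.00667). The first call was lost without wild-type replicate 1 (adjusted p = 0.085). Kcnj16 was just inside the filter, with 1.89 to 4.61 in repopulating microglia, 0 to 2.65 in bone-marrow macrophages, and 13.9 and 13.2 in wild-type microglia. It was lower in bone-marrow macrophages than in wild-type microglia (−2.88 ± 0.70, limma adjusted p = 0.0106), a call lost when either wild-type library was left out (adjusted p = 0.0699 without replicate 1 and 0.0625 without replicate 2).

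**Figure D3:**
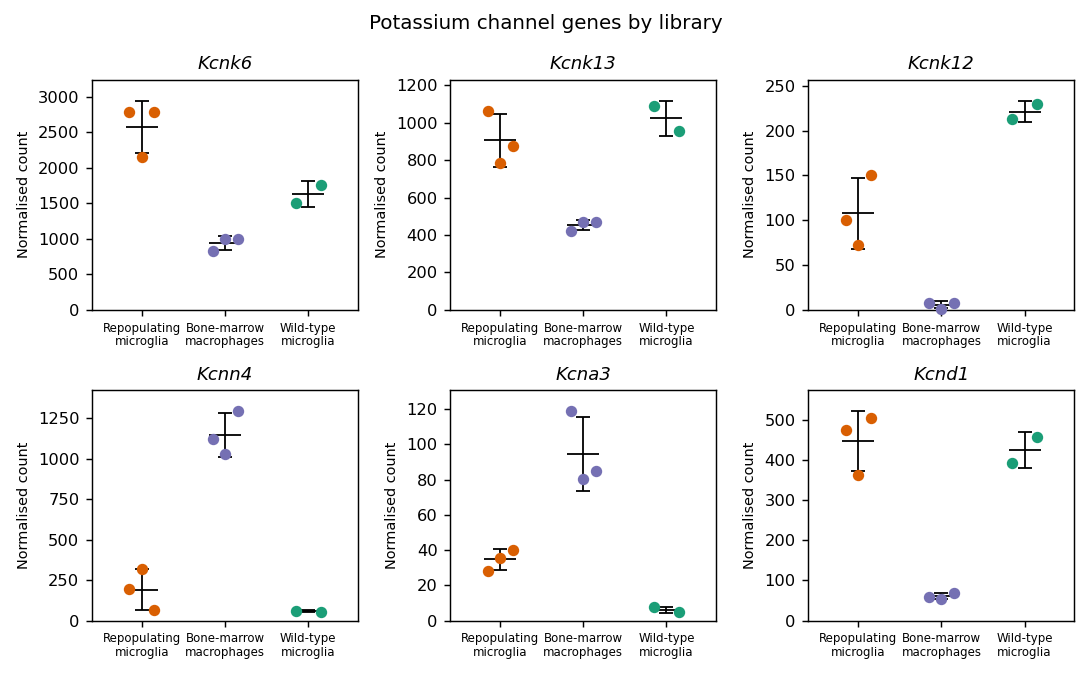
Normalised counts of 6 potassium channel genes, with 1 point per library, repopulating microglia on the left, then bone-marrow macrophages, then wild-type microglia, a line at each group's mean, bars for the SD and linear axes from 0. Kcnk6, Kcnk13, Kcnk12 and Kcnd1 are lowest and Kcnn4 and Kcna3 highest in bone-marrow macrophages, and Kcnn4 spreads from 65.7 to 316 among repopulating microglia.

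Counted per kilobase of the longest annotated transcript, 11 pore-forming potassium channel genes could be set against one another within a library. Kcnk6 took 52.9% ± 2.51 of their summed level in repopulating microglia (SD, n = 3), 26.6% ± 2.69 in bone-marrow macrophages (n = 3) and 40.1% ± 3.55 in wild-type microglia (n = 2). Kcnk13 took 24.7% ± 2.08 in repopulating microglia, 16.97% ± 1.13 in bone-marrow macrophages and 33.5% ± 3.94 in wild-type microglia. The remainder was divided differently: Kcnn4 held 4.15%, 8.27% and 1.46% in the 3 repopulating libraries, 36.2% ± 2.65 in bone-marrow macrophages and 1.59% ± 0.219 in wild-type microglia. Kcnj10 held 2.11% in repopulating microglia, 11.8% in bone-marrow macrophages and 1.71% in wild-type microglia. The share of Kcnk12 was 4.55% in repopulating microglia, 0.326% in bone-marrow macrophages and 11.3% in wild-type microglia. Kcnd1 held 7.07% in repopulating microglia, 1.31% in bone-marrow macrophages and 8.07% in wild-type microglia. Without division by length, an alternative added after the data were seen, Kcnk6 took 56.4% in repopulating microglia, 28.6% in bone-marrow macrophages and 44.8% in wild-type microglia, and Kcnn4 took 4.40% in repopulating microglia, 34.7% in bone-marrow macrophages and 1.58% in wild-type microglia. Shares within a library depend on one another, so no test was made on them.

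**Figure D4:**
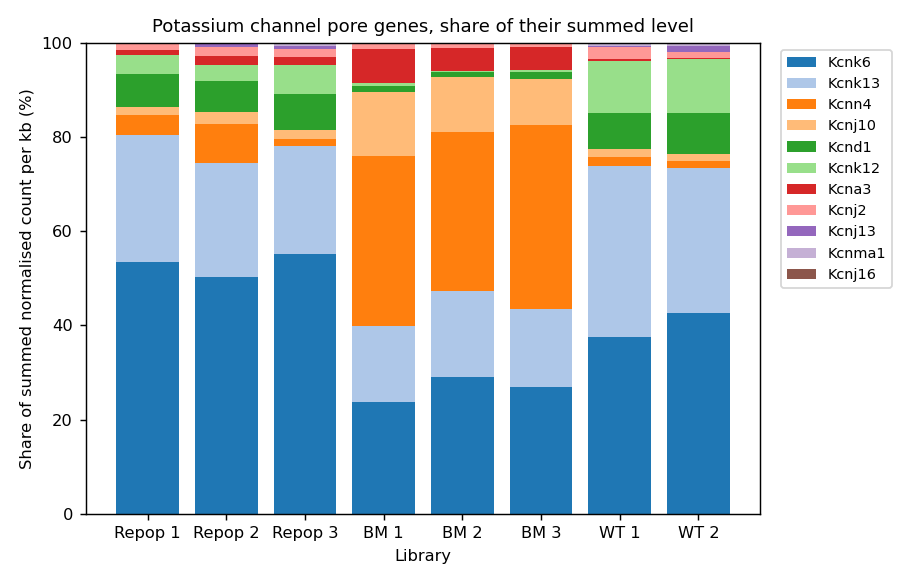
Share of each of 11 pore-forming potassium channel genes in their summed normalised count per kilobase, in percent, as 1 stacked bar per library, repopulating microglia on the left, then bone-marrow macrophages, then wild-type microglia. Kcnk6 and Kcnk13 fill most of every microglia bar, and Kcnn4 takes 36.2% on average in bone-marrow macrophages.

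Hvcn1, the voltage-gated proton channel, was the channel gene with the highest level per kilobase in every group: 1069 ± 152 normalised counts per kilobase in repopulating microglia, 538 in bone-marrow macrophages and 834 in wild-type microglia. The gene (chr5:122206804-122242297) had 3363, 2528 and 3102 normalised counts in repopulating microglia, 1381, 1616 and 1529.9 in bone-marrow macrophages, and 2455 and 2226 in wild-type microglia. The lowest repopulating library was just above the higher wild-type library, and the bone-marrow libraries were below both. Hvcn1 was lower in bone-marrow macrophages than in wild-type microglia by limma (−0.63 ± 0.15 SE, adjusted p = 0.0105) and higher in repopulating microglia than in bone-marrow macrophages (0.98 ± 0.14, adjusted p = 0.000931), while the difference of 0.35 ± 0.15 between repopulating and wild-type microglia did not pass (adjusted p = 0.19). Without wild-type replicate 1 the first call was lost (adjusted p = 0.0861). Neutrophils also express Hvcn1, and their markers were highest in wild-type microglia, while Hvcn1 had its highest mean in repopulating microglia. The part of neutrophils in the values of Hvcn1 was not tested. Tctn1 overlaps Hvcn1 on the other strand and had 44.9 to 87.5 in all libraries. Reads where these genes overlap cannot be told apart, and their part in the Hvcn1 count was not tested.

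Of 7 genes of the NADPH oxidase, which the proton channel serves, 1 was higher and 1 lower in bone-marrow macrophages than in wild-type microglia (beside 43.5% called of all tested genes), and 2 were lower in repopulating microglia than in bone-marrow macrophages (beside 30.9%). Between repopulating and wild-type microglia their differences ran from −0.37 for Rac1 to 0.48 for Cybb, with a lowest limma adjusted p of 0.179. Cybb, the catalytic subunit, had 3701, 5269 and 765 normalised counts in repopulating microglia, 12439, 13888 and 11139.9 in bone-marrow macrophages, and 1886 and 1657 in wild-type microglia. It was higher in bone-marrow macrophages than in wild-type microglia (2.81 ± 0.66 SE, limma adjusted p = 0.00913) and lower in repopulating microglia than in bone-marrow macrophages (−2.34 ± 0.59, limma adjusted p = 0.0168). Both calls of Cybb were near the threshold, with an adjusted p of 0.052 and 0.0608 without wild-type replicate 1 or 2 for the first, and 0.0507 to 0.0599 without any 1 bone-marrow library for the second. Rac1 (lower in bone-marrow macrophages than in wild-type microglia, −0.54, limma adjusted p = 0.0439, and 0.191 without wild-type replicate 1) and Ncf4 (lower in repopulating microglia than in bone-marrow macrophages, −0.48, limma adjusted p = 0.0352, and 0.135 without bone-marrow replicate 3) were the only other subunits called.

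Of the 7 tested Trp genes, Trpm2, Trpm7 and Trpv4 were called higher by limma in both other groups than in wild-type microglia. Trpm2, a calcium-permeable channel opened by ADP-ribose and oxidative stress (chr10:77907722-77970563), had 259.7, 227 and 454 normalised counts in repopulating microglia, 270.5, 267 and 331 in bone-marrow macrophages, and 113 and 133 in wild-type microglia. Trpm7, a magnesium- and calcium-permeable channel fused to a kinase (chr2:126791565-126876230), had 503, 438 and 423 in repopulating microglia, 541, 606 and 458 in bone-marrow macrophages, and 265 and 302 in wild-type microglia. Trpv4, opened by warmth and cell swelling (chr5:114622152-114658421), had 82.2, 103 and 53.0 in repopulating microglia, 98.9, 128 and 144 in bone-marrow macrophages, and 27.8 and 34.6 in wild-type microglia. For all 3 genes every wild-type library was below every other library. The same order held for Trpv2 by a small margin (801 in wild-type replicate 2 against 804 in repopulating replicate 3). The share of all tested genes with this order was not counted.

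The limma differences between repopulating and wild-type microglia were 1.28 ± 0.28 SE for Trpm2 (adjusted p = 0.0276), 0.68 ± 0.16 for Trpm7 (adjusted p = 0.0386) and 1.28 ± 0.31 for Trpv4 (adjusted p = 0.0384). Those between bone-marrow macrophages and wild-type microglia were 1.22 ± 0.28 for Trpm2 (adjusted p = 0.00798), 0.91 ± 0.16 for Trpm7 (adjusted p = 0.00253) and 1.94 ± 0.31 for Trpv4 (adjusted p = 0.00133). Repopulating microglia and bone-marrow macrophages differed by 0.05 for Trpm2 (adjusted p = 0.892), −0.23 for Trpm7 (adjusted p = 0.275) and −0.67 ± 0.27 for Trpv4 (adjusted p = 0.0992). In this comparison Trpm7 passed under equal totals (limma adjusted p = 0.0298). Trpv4 passed under equal totals and without repopulating replicate 2 (lowest limma adjusted p = 0.0240). The calls of repopulating against wild-type microglia were close to the threshold. Without any 1 of repopulating replicate 1, the bone-marrow and the wild-type libraries the adjusted p was 0.054 to 0.217 for Trpm2, 0.0529 to 0.264 for Trpm7 and 0.0658 to 0.253 for Trpv4, and without repopulating replicate 2 it was 0.0569 for Trpm7 and 0.0691 for Trpv4. When the 2 microglia groups were fitted alone all 3 calls were lost (adjusted p = 0.128 for Trpm2, 0.135 for Trpm7 and 0.156 for Trpv4). Trpm7 was also lost under equal totals (adjusted p = 0.0578), and Trpv4 without the filter (0.0518) and with the replicate block (0.0508). Of the bone-marrow calls, that of Trpm2 was lost without wild-type replicate 1 (adjusted p = 0.0673).

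Trpv2, the most abundant Trp channel with a pore and a known channel of macrophage phagocytosis (chr11:62574486-62600515), was nearly level. It had 841, 818 and 804 normalised counts in repopulating microglia, 898, 878 and 1030.0 in bone-marrow macrophages, and 783 and 801 in wild-type microglia, with limma differences of 0.05 (adjusted p = 0.822) in repopulating against wild-type microglia and 0.24 (adjusted p = 0.149) in bone-marrow macrophages against wild-type microglia. Under equal totals these values were −0.06 and 0.38, and the bone-marrow difference passed (adjusted p = 0.0362). Repopulating microglia and bone-marrow macrophages differed in Trpv2 by −0.18 (limma adjusted p = 0.24), which passed under equal totals (limma adjusted p = 0.0153). Trpm4, a sodium-conducting channel that calcium opens (chr7:45302632-45333780), had 114, 98.9 and 155 in repopulating microglia, 42.1, 54.1 and 48.5 in bone-marrow macrophages, and 140.0 and 128 in wild-type microglia. It was lower in bone-marrow macrophages than in wild-type microglia (−1.46 ± 0.23 SE, limma adjusted p = 0.00146) and higher in repopulating microglia than in bone-marrow macrophages (1.31 ± 0.21, limma adjusted p = 0.00182).

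The remaining Trp rows passed in no comparison by the main test. Trpc2 had 8.50 to 13.3 in repopulating microglia, 13.8 to 23.3 in bone-marrow macrophages, and 9.62 and 9.15 in wild-type microglia, and its locus overlaps other genes on its own strand, so its reads are uncertain. Trpc4ap, the adaptor, had 1748 to 2043 in repopulating microglia, 1568 to 1621 in bone-marrow macrophages, and 1647 and 1734 in wild-type microglia. Trpc1 and Trpc6, both reported in cultured microglia, had 1 or 2 reads over all libraries and were not tested.

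**Figure D5:**
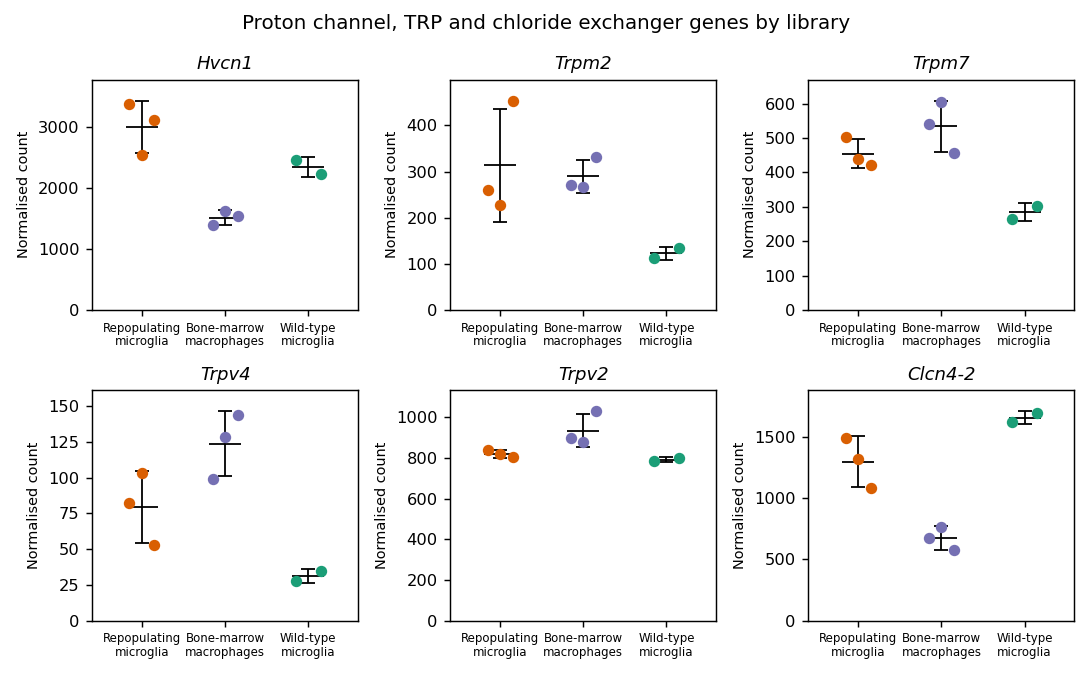
Normalised counts of Hvcn1, 4 TRP channel genes and Clcn4-2, with 1 point per library, repopulating microglia on the left, then bone-marrow macrophages, then wild-type microglia, a line at each group's mean, bars for the SD and linear axes from 0. Trpm2, Trpm7, Trpv4 and, by a small margin, Trpv2 are lowest in both wild-type libraries. Hvcn1 and Clcn4-2 are lowest in the bone-marrow macrophages.

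The 5 tested Clcn genes encode endosomal and lysosomal exchangers and transporters, and no plasma-membrane member of the family passed the filter. Clcn4-2 (named Clcn4 in GENCODE, chr7:7282309-7300851) had 1493, 1319 and 1082 normalised counts in repopulating microglia, 677, 768 and 578 in bone-marrow macrophages, and 1622 and 1695 in wild-type microglia. All bone-marrow libraries were below all others. By limma it was lower in bone-marrow macrophages than in wild-type microglia (−1.31 ± 0.17 SE, adjusted p = 0.000563) and higher in repopulating microglia than in bone-marrow macrophages (0.94 ± 0.16, adjusted p = 0.0022), and its difference of −0.37 between repopulating and wild-type microglia did not pass (adjusted p = 0.222).

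Clcn3, its late-endosomal relative (chr8:60910389-60983300), had 614, 462 and 394 in repopulating microglia, 401, 399.8 and 354 in bone-marrow macrophages, and 704 and 619 in wild-type microglia. Clcn3 was lower in bone-marrow macrophages than in wild-type microglia (−0.78 ± 0.19 SE, limma adjusted p = 0.0112), but not without wild-type replicate 1 (adjusted p = 0.0901). Clcn7, the lysosomal exchanger whose loss causes osteopetrosis (chr17:25133391-25162104), had 1018, 946 and 848 in repopulating microglia, 673, 756 and 703 in bone-marrow macrophages, and 864 and 810.4 in wild-type microglia. It was higher in repopulating microglia than in bone-marrow macrophages (0.40 ± 0.12, limma adjusted p = 0.0319), a call lost without any 1 of the 8 libraries except repopulating replicate 3 (adjusted p of 0.0537 to 0.133) and under equal totals (0.14, adjusted p = 0.297). Clcn5, the early-endosomal exchanger (92.3 to 138 over all libraries), and Clcn6, of late endosomes (111 to 195), passed in no comparison by the main test, although Clcn6 passed in repopulating microglia against bone-marrow macrophages without repopulating replicate 2 (adjusted p = 0.0218) and by DESeq2 (0.0457).

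The start regions of 3 Clcn genes are shown because they hold the E-box letters CACGTG, a palindrome found at the centre of the element through which TFEB is known to drive lysosomal genes. The E-box was found in 7.24% of all 27025 windows and in 6 of the 24 windows of tested channel genes (25.0%), those of Clcn4-2, Clcn6, Clcn7, Kcnj2, Kcnn4 and Trpm7. The windows are drawn as those above, with the E-box in capitals: Clcn7 (chr17:25133141-25133440, plus strand), Clcn6 (chr4:148038764-148039063, minus strand) and Clcn4-2 (chr7:7299508-7299807, minus strand).
Clcn7: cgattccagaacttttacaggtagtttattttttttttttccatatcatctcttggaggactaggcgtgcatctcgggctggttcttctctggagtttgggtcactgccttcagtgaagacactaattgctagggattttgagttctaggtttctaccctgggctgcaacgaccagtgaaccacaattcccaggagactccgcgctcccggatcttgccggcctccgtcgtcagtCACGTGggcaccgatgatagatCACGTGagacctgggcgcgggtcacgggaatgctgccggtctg
Clcn6: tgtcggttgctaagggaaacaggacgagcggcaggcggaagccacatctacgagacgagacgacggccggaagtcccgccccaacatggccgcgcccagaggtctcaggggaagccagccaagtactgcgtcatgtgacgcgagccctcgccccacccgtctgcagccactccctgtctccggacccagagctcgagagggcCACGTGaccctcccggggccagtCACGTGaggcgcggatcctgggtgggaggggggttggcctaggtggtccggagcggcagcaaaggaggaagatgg
Clcn4-2: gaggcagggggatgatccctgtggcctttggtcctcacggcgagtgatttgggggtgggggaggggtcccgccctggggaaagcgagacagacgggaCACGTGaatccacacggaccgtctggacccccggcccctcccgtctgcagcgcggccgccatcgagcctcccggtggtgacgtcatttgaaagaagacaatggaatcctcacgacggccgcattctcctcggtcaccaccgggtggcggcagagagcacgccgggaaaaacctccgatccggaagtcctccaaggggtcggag
Clcn7 and Clcn6 hold 2 E-boxes each and Clcn4-2 holds 1. In bone-marrow macrophages against wild-type microglia Clcn4-2 was lower, while the differences of Clcn7 (−0.24, limma adjusted p = 0.17) and Clcn6 (−0.37, limma adjusted p = 0.159) did not pass, and the genes were not tested against one another.

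Other ion transport genes were counted as lists. Of 12 tested volume-regulated and other anion channels, none passed in repopulating against wild-type microglia (lowest limma adjusted p = 0.123, for Best1), 4 were higher and 2 lower in bone-marrow macrophages than in wild-type microglia (beside 43.5% called of all tested genes), and 1 was higher and 3 lower in repopulating microglia than in bone-marrow macrophages (beside 30.9%). Clic4, an intracellular chloride channel protein, had 816, 905 and 424 normalised counts in repopulating microglia, 2486, 2472 and 2173 in bone-marrow macrophages, and 446 and 394 in wild-type microglia, and was higher in bone-marrow macrophages than in wild-type microglia (2.50 ± 0.29 SE, limma adjusted p = 0.000261). Lrrc8c, a subunit of the swelling-activated anion channel, differed by 1.81 ± 0.22 in the same comparison (limma adjusted p = 0.000377). Lrrc8b and Best1 were the other 2 higher genes. The call of Lrrc8b was lost without wild-type replicate 1 (adjusted p = 0.0703), and that of Best1 under 9 alternatives, among them either wild-type library left out (adjusted p of 0.0616 to 0.182). The lower genes, Ano10 and Tmem206, passed without any single library.

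Of 5 tested endolysosomal cation channels, 1 was higher in repopulating than in wild-type microglia (beside 8.61% called of all tested genes). Tpcn2, a cation channel of lysosomes, had 188, 224 and 236 normalised counts in repopulating microglia, 257, 255 and 239 in bone-marrow macrophages, and 114 and 86.4 in wild-type microglia (1.11 ± 0.18 SE, limma adjusted p = 0.0107, and 0.0501 or 0.0892 without wild-type replicate 1 or 2). In bone-marrow macrophages against wild-type microglia Tpcn2 and Tpcn1 were higher and the lysosomal potassium and proton channel Tmem175 was lower (−1.04 ± 0.15, limma adjusted p = 0.000867; 43.5% of all tested genes were called), and the call of Tpcn1 was lost without any 1 library of those groups (adjusted p of 0.0519 to 0.101).

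Of 6 tested store-operated and mechanosensitive calcium channel genes, Orai1, the pore of store-operated entry, was lower in bone-marrow macrophages than in wild-type microglia (−1.96 ± 0.14 SE, limma adjusted p = 2.53e-05) and higher in repopulating microglia than in bone-marrow macrophages (1.34 ± 0.13, limma adjusted p = 0.000118). Its difference of −0.62 ± 0.14 between repopulating and wild-type microglia passed (limma adjusted p = 0.0311), but not without any 1 of 6 libraries, the bone-marrow and wild-type libraries and repopulating replicate 2 (0.0631 to 0.262). Orai3 was lower in bone-marrow macrophages than in wild-type microglia (−1.28 ± 0.14, limma adjusted p = 0.000232). Piezo1, opened by membrane stretch, was higher (1.68 ± 0.35, limma adjusted p = 0.00507, and 0.0511 without wild-type replicate 1), and so was Stim2 (0.65, limma adjusted p = 0.0152, and 0.107 without that library).

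Among the cation-chloride cotransporters and their kinases, Wnk1, a kinase that regulates them, was higher in repopulating than in wild-type microglia (1.16 ± 0.28 SE, limma adjusted p = 0.0399), but not without wild-type replicate 1 (adjusted p = 0.305) or replicate 2 (0.0714), repopulating replicate 1 (0.0812) or any 1 bone-marrow library (0.077 to 0.078). Slc12a2, the cotransporter that loads cells with chloride, had 1369.5, 1409 and 1593 normalised counts in repopulating microglia, 169.9, 253 and 157 in bone-marrow macrophages, and 1762 and 1744 in wild-type microglia. It was lower in bone-marrow macrophages than in wild-type microglia (−3.21 ± 0.20 SE, limma adjusted p = 1.74e-05) and higher in repopulating microglia than in bone-marrow macrophages (2.94 ± 0.18, limma adjusted p = 1.98e-05). Of 8 genes of potassium efflux and the inflammasome, Panx1, a large-pore channel, was lower in repopulating than in wild-type microglia (−1.23 ± 0.23, limma adjusted p = 0.0162, and 0.142 or 0.108 without wild-type replicate 1 or 2), and 1 was higher and 3 lower in bone-marrow macrophages than in wild-type microglia (beside 43.5% called of all tested genes). P2rx7, the ATP-gated channel that starts potassium efflux, was among the lower ones (−0.70 ± 0.15, limma adjusted p = 0.00521) and kept its call under all the alternatives run. The other 3 calls were lost under several alternatives: Nlrp3 (lower) under 6 (adjusted p of 0.0529 to 0.143), Pycard (lower) under 7 (0.0544 to 0.204) and P2rx4 (higher) under 4 (0.0822 to 0.129).

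The 65 untested channel genes with reads were low everywhere. Kcnj9, just outside the filter, had 1.89, 1.48 and 15.0 normalised counts in repopulating microglia, 2.84, 4.24 and 4.41 in bone-marrow macrophages, and 3.21 and 7.12 in wild-type microglia, and just inside it Kcne2 had 4.72, 10.3 and 9.21 in repopulating microglia, 3.41, 0 and 4.41 in bone-marrow macrophages, and 0 and 13.2 in wild-type microglia. Kcne3, an accessory subunit, had no read in the 3 repopulating libraries, against 33 reads in bone-marrow macrophages and 13 in wild-type microglia, so that its level, summed reads over summed size factors, was at least 7.47-fold lower in repopulating microglia than in bone-marrow macrophages and at least 5.88-fold lower than in wild-type microglia, with a floor of 3 reads over the group. These bounds allow for counting error in the empty group alone. The reads of the other groups were taken as counted, and the spread between libraries is not covered. Kcne3 was picked for this pattern after its values were seen.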

How the data were processed

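The 8 libraries were prepared with a TruSeq kit without strand information, and input RNA had a RIN above 8, per the labels' protocols. The submitters' processing notes name the build mm10 and, without their roles, DESeq 1.14.0, HTSeq, Bowtie2 2.1.0.0 and TopHat2 2.0.10. The deposited values are a signal: gene reads over a size factor that the authors set for each library. This was read from the values: 100% of them were whole multiples of 1 read within a tolerance of 0.01 reads. Columns were matched to samples by name, and those named mono were taken as the bone-marrow macrophages because the other columns matched the other groups. Genes with at least 10 in at least 2 libraries were tested (11415 rows, 99.9% of reads) with limma 3.58.1 on log2 (value + 1) in R 4.3.3. Alternatives used edgeR 4.0.16 and DESeq2 1.42.0 on the recovered reads, other pseudocounts, filters and scalings, each library left out, only the 2 groups compared, and the replicate number as a block. Fits were tested on simulated data. Positions come from GENCODE vM21 (GRCm38, which is mm10), where all 127 symbols had 1 locus, and start regions from RefSeq on GRCm38.p6, where 24 of the 29 tested genes had a window. Figures were drawn with matplotlib 3.10.9 under Python 3.11.15. Because the kit does not mark strand, reads of overlapping genes cannot be told apart.

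Named are the called members, the 8 most abundant, members with roles known in microglia or macrophages, those at the edge of the filter and up to 4 genes of each partner list by smallest adjusted p. The members and lists were chosen with earlier results of these data known. Protein sequences are not used here, and results of some genes are not reported here.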

Additional observations from a re-analysis of the deposited data

How the results depend on the processing

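Over 18 alternatives of 29 channel genes in 3 comparisons, 1447 of 1551 values kept their direction and their side of the threshold, 62 lost the call, 15 gained one and 27 changed sign, none of the last where the gene was called in that same comparison. Genes without a call in the main test are included, and staying uncalled counted as kept. The share kept is therefore no measure of how stable the calls are. The 5 higher genes of repopulating against wild-type microglia became 3 without the filter, 3 under equal totals, 3 with the replicate block (Kcnk6 and Trpv4 were lost) and 0 when the 2 groups were fitted alone, while edgeR called 5 and DESeq2 called 6, and leaving out 1 library gave 1 to 7 (3 without repopulating replicate 2, 7 without replicate 3 and 1 without any other). In that comparison 0 channel genes were lower by limma, edgeR or DESeq2 (3 at an unadjusted limma p under 0.05), and 1 was lower without the filter (Kcne3, −2.87, limma adjusted p = 0.0123). The 11 genes lower in bone-marrow macrophages than in wild-type microglia became 17 without the filter and 7 to 12 with 1 library left out, with 7 without wild-type replicate 1. For repopulating microglia against bone-marrow macrophages the 5 lower genes became 8 under equal totals. The cause of these changes was not tested.

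Signs turned as follows, on the log2 scale. In repopulating against wild-type microglia, Kcnd1 was −0.0475 under equal totals, −0.033 with the replicate block and −0.0478 to 0.205 with 1 library left out. Trpv2 was −0.0584 under equal totals. Kcnj2 was 0.0133 with TMM, 0.0414 with the block and −0.44 to 0.42 with 1 library left out, and Kcnq1ot1 was −0.19 with the block and −0.30 to 0.39 with 1 left out. With 1 left out, Kcnj13 ran from −1.64 to 0.64, Kcnip3 from −0.72 to 0.12, Kcnma1 from −1.19 to 0.20 and Kcne2 from −0.71 to 3.12. In bone-marrow macrophages against wild-type microglia, Clcn5 was 0.0381 under equal totals and −0.24 to 0.0467 with 1 left out, Trpc4ap was 0.0583 under equal totals and 0.0077 with TMM, and Kcne2 ran from −2.30 to 1.53. In repopulating microglia against bone-marrow macrophages, Trpm2 was −0.20 under equal totals, −0.0138 with TMM and −0.24 to 0.25 with 1 left out, Clcn5 ran from −0.24 to 0.0499 and Kcnip3 from −0.0386 to 0.80.

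The replicate numbers share no stated origin: over 7 same-numbered pairs the correlation of deviations from the group means was −0.24 to 0.2438, above 0.1 in 2 pairs. With 2 wild-type libraries, every comparison with wild type rests on a pair, and genes under 10 normalised counts could not be followed at this depth.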

Other observations

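Kcne2 and Kcnj13, both known from the choroid plexus epithelium, passed the filter with low values that spread widely within groups. Kcnj13 had 0, 10.3 and 9.21 normalised counts in repopulating microglia, 2.84, 1.06 and 1.76 in bone-marrow macrophages, and 2.14 and 14.2 in wild-type microglia. A list of 6 choroid plexus markers, added after these values were seen, summed to 684, 1995 and 2104 in repopulating microglia, 573, 94.4 and 482 in bone-marrow macrophages, and 1557 and 3139 in wild-type microglia, most of it Ttr. The libraries with the most Kcne2 and Kcnj13 in each microglia group were among those with the higher sums. The part of such cells in these 2 genes was not tested. Gigyf2, which overlaps Kcnj13, had 124 to 290.3 in repopulating microglia, 189 to 290.1 in bone-marrow macrophages, and 75.9 and 107 in wild-type microglia.

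Without the filter, some untested channel genes passed limma's test, all on few reads, among them Kcne3 in repopulating against wild-type microglia (lower). In repopulating microglia against bone-marrow macrophages Kcnd3, Kcna7 and Kcnj12 were higher and Kcne3 and Kcnk5 lower. In bone-marrow macrophages against wild-type microglia Kcnk5 was higher, and Kcna7, Kcnq1, Kcnc2, Kcnh1 and Trpc1 were among the lower genes. Kcnq1, which lies opposite Kcnq1ot1, had 0, 0 and 3.46 normalised counts in repopulating microglia, 0, 0 and 0.882 in bone-marrow macrophages, and 11.8 and 7.12 in wild-type microglia, and Kcnq1ot1 had 84.1, 91.5 and 221 in repopulating microglia, 52.8, 67.9 and 97.0 in bone-marrow macrophages, and 118 and 99.6 in wild-type microglia.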
